A study of Mus musculus with 16 samples.

Results

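The 6 genes of the Nr4a and Egr families of transcription factors that T cells switch on after antigen recognition, *Nr4a1*, *Nr4a2*, *Nr4a3*, *Egr1*, *Egr2* and *Egr3*, were followed across CD4+ and CD8+ tumor-infiltrating lymphocytes (TILs). They were chosen by gene symbol, and each matched 1 of the 55450 genes of the count table. The TILs came from subcutaneous tumors of B16F10, a mouse melanoma line, grown in wild-type (WT) C57BL/6J mice or in *Sirt2*-/- mice of the strain B6.129-Sirt2tm1.1Fwa/J, which lack the deacetylase SIRT2 in the whole animal, so that the tumor's host cells also lacked it. Mice were 7 to 8 weeks old, of both sexes and matched for age and sex. Cells were released by enzymatic digestion at body temperature and purified with beads against CD3ε, and 4 libraries of total RNA were made for each genotype and cell type, 16 in all. No further treatment was given, and all groups carried the same tumor. The study's methods give 4 mice per group, and the labels do not say whether a CD4+ and a CD8+ library came from the same mouse.

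T cell receptor (TCR) engagement activates calcineurin and NFAT through calcium and the MAP kinase ERK through Ras. NR4A1 (Nur77), NR4A2 (Nurr1) and NR4A3 (Nor1) are orphan nuclear receptors, which need no known ligand and act mainly according to how much of them is made. Their genes are induced downstream of calcium and CREB or MEF2 factors. NR4A proteins limit effector functions and are associated with exhaustion of T cells in tumors. EGR1, EGR2 and EGR3 are zinc finger factors induced downstream of ERK and NFAT. EGR2 and EGR3 are linked to anergy, in part through diacylglycerol kinase and E3 ubiquitin ligase genes, and NAB1 and NAB2 are corepressors that bind EGR proteins. As readouts of TCR signaling, these genes bear on the question of whether the response to antigen differs between genotypes and between CD4+ and CD8+ TILs.

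In GRCm38, *Nr4a1* (ENSMUSG00000023034.7) is at chr15:101254269-101274795 on the plus strand, *Nr4a2* (ENSMUSG00000026826.13) at chr2:57106830-57124003 on the minus strand and *Nr4a3* (ENSMUSG00000028341.9) at chr4:48045153-48086447 on the plus strand. None of the 6 genes overlaps another annotated gene, and reads over their exons were counted.

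The promoters of the 3 Nr4a genes are shown because 2 of these genes, *Nr4a1* and *Nr4a3*, varied together between libraries and the third did not. Each window holds 250 bases before and 50 bases after a transcription start in RefSeq (GRCm38.p6), in 5′ to 3′ direction of the gene. Capitals mark the half-site of the cyclic AMP response element (CRE), TGACG or its reverse complement CGTCA, the core that CREB binds.
Nr4a1, chr15:101266596-101266895, plus strand: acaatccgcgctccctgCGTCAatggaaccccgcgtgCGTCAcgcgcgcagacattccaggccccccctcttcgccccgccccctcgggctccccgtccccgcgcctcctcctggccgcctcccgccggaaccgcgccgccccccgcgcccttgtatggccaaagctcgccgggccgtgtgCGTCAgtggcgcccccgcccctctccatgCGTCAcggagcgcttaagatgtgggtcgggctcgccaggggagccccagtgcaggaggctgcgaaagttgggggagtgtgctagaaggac
Nr4a2, chr2:57123954-57124253, minus strand: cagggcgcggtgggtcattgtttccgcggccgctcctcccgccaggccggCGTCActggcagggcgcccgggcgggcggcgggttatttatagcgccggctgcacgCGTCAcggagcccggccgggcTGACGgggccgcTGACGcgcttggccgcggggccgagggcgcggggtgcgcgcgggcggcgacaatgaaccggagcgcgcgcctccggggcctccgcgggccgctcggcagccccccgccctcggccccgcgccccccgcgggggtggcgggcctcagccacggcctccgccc
Nr4a3, chr4:48045055-48045354, plus strand: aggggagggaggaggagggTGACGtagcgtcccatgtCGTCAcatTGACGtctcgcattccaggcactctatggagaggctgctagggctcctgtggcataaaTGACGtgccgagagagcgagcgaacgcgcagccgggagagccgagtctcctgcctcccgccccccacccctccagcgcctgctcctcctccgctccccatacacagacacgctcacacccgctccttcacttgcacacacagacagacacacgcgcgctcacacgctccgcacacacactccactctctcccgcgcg
Each of the 3 windows held 4 half-sites. They start at −233, −213, −69 and −40 from the start of transcription in *Nr4a1*, at −200, −144, −123 and −111 in *Nr4a2*, and at −231, −213, −205 and −147 in *Nr4a3*. Of 32851 promoter windows of that length in the table, 20.8% held at least 1 half-site on either strand, 5.01% at least 2 and 0.231% at least 4. The full palindrome TGACGTCA, which contains 2 overlapping half-sites, was in none of the 3 windows and in 1.79% of all windows. The NR4A binding element AAAGGTCA (both strands) was also in none of the 3 and in 1.51% of all windows. *Nr4a1* alone of the 3 had a match to an EGR site (GCGGGGGCG or GCGTGGGCG, both strands), at −60, which 3.47% of all windows had. *Egr2* had 5 windows for its RefSeq starts, 4 of them with a match to a CArG box, the element of serum response factor, which 1.63% of all windows held, and 3 of these 4 overlapped and shared 1 match. *Egr1* and *Egr3* had no window in the table. A match describes letters only.

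Total counts ran from 28000949 to 62407851 per library. Genes with at least 1 count numbered 17730 to 22138 in 13 libraries. They numbered 8169 for replicate 4 of *Sirt2*-/- CD4+, 12587 for replicate 1 of WT CD4+ and 14411 for replicate 1 of WT CD8+ TILs. These 3 libraries stand apart for the members as well. Among genes whose mean level elsewhere in the cell type lay within the range of the 6 members, 59.6%, 14.1% and 0.659% were without a single count in these 3, and at most 0.168% in each of the rest. The members themselves had no count for 4 of 6, 1 of 6 and 2 of 6 in these libraries, in the same order, and for none elsewhere. Each comparison is therefore given with all libraries and without these 3. *Sirt2*, the targeted gene, lay at 33.4 to 75.6 CPM (counts scaled to library totals adjusted by TMM factors) in the 8 WT libraries and at 0 to 12.2 CPM in the 8 *Sirt2*-/- libraries, without overlap. The value of 0 was in *Sirt2*-/- CD4+ replicate 4, where 59.6% of genes in the range of the members had no count. It therefore does not settle the genotype of that library. In the other *Sirt2*-/- libraries the lowest value was 6.52 CPM.

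Markers of the labelled cell types were found where the labels put them. The summed level of *Cd4*, *Zbtb7b* and *Cd40lg* was 436 to 720 CPM in CD4+ libraries and 0.787 to 12.3 CPM in CD8+ libraries, and that of *Cd8a*, *Cd8b1* and *Runx3* was 1876 to 2375 CPM in CD8+ and 178 to 307 CPM in CD4+ libraries. Markers of regulatory T cells (5 genes with *Foxp3*) summed to 1287 to 2752 CPM in CD4+ TILs and 218 to 431 CPM in CD8+ TILs, and 4 NK cell genes to 15.7 to 53.6 CPM in CD4+ and 237 to 449 CPM in CD8+ TILs. Most of this last sum was *Eomes*, with a mean of 133 CPM over the 16 libraries. *Klre1*, *Klrb1c* and *Ncr1* had means of 12.9, 4.66 and 1.25 CPM, so the sum is mainly a level of *Eomes*. In bulk RNA, a change in how many cells of one kind are present and a change in RNA per cell cannot be told apart. The sums were 1.5 to 41.7 CPM for 13 myeloid genes, 0.0179 to 12.5 CPM for 4 B cell genes, 36.2 to 181 CPM for 6 stromal genes and 3.83 to 98.4 CPM for 7 melanoma genes, with up to 12 of the 13 myeloid genes at 0 in a library with few genes. The stromal sum was mostly *Pecam1*, with a mean of 78.5 CPM over the 16 libraries, where the others had 0.143 (*Cdh5*) to 5.23 CPM (*Col1a1*). For 8 T cell genes the sums were 1844 to 2785 CPM. Heat shock genes, which warm digestion of tissue also induces, summed to 3974 to 4745 CPM in WT CD4+, 3801 to 8965 CPM in *Sirt2*-/- CD4+, 5600 to 9620 CPM in WT CD8+ and 7233 to 7925 CPM in *Sirt2*-/- CD8+ TILs.

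Per kilobase of exon, the order of the 6 genes differed between the cell types. In WT CD4+ TILs *Nr4a3* (4.31 ± 2.35 CPM per kilobase, SD, n = 4) and *Nr4a1* (3.94 ± 1.53) had the highest means, followed by *Egr1* (1.962 ± 1.35), *Nr4a2* (1.49 ± 1.03), *Egr2* (1.47 ± 0.869) and *Egr3* (0.221 ± 0.163). In WT CD8+ TILs *Egr1* (6.12 ± 2.75) came first, followed by *Nr4a2* (3.94 ± 0.370), *Nr4a3* (3.58 ± 2.55), *Egr3* (2.13 ± 1.36), *Nr4a1* (1.63 ± 1.16) and *Egr2* (1.49 ± 0.298). The places of *Nr4a2* and *Nr4a3* there depended on replicate 1, which has few genes. Without it, *Nr4a3* (4.77 ± 1.10, n = 3) lay above *Nr4a2* (4.02 ± 0.411). These are moderate levels: in mean level, 37.7% of the 17270 genes tested lay below *Egr2* and 63.3% below *Egr1*. *Egr4*, the other gene of the Egr family, had 1 count in 1 library.

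*Nr4a1*, widely used as a reporter of TCR signaling, was lower in CD8+ than in CD4+ TILs in most libraries. In WT CD4+ TILs it lay at 5.95, 15.1, 16.4 and 17.9 CPM, and in *Sirt2*-/- CD4+ TILs at 7.59, 13, 14.1 and 0 CPM. In WT CD8+ TILs it lay at 0, 6.26, 7.07 and 9.59 CPM, and in *Sirt2*-/- CD8+ TILs at 5.98, 9.28, 2.49 and 11.5 CPM. Both values of 0 and the WT CD4+ value of 5.95 came from libraries with few genes detected. By counting error alone, a count of 0 allows up to 0.0537 CPM (3 counts) in *Sirt2*-/- CD4+ replicate 4 and 0.0908 CPM in WT CD8+ replicate 1. In these 2 libraries 59.6% and 0.659% of genes in the range of the members had no count, so a 0 there does not bound the level that closely. The order of group means was WT CD4+ (13.8 ± 5.37 CPM, SD, n = 4), *Sirt2*-/- CD4+ (8.66 ± 6.43), *Sirt2*-/- CD8+ (7.30 ± 3.92) and WT CD8+ (5.73 ± 4.08), and every neighbor in that order overlapped. Without the libraries with few genes the WT CD8+ mean was 7.64 ± 1.74 CPM (n = 3), above that of *Sirt2*-/- CD8+ TILs.

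*Nr4a2* ran the other way. It lay at 0.399, 10.3, 7.56 and 5.85 CPM in WT CD4+ TILs and at 4.99, 6.45, 8.81 and 0 CPM in *Sirt2*-/- CD4+ TILs, against 15, 17.4, 17.1 and 14.4 CPM in WT CD8+ TILs and 13.2, 12.7, 23.4 and 20.9 CPM in *Sirt2*-/- CD8+ TILs. Every CD8+ library was above every CD4+ library, and WT CD8+ replicate 1, which had no count for *Nr4a1* and *Nr4a3*, was not low for *Nr4a2* (497 counts). The group means were 17.5 ± 5.41 CPM in *Sirt2*-/- CD8+, 16 ± 1.5 in WT CD8+, 6.04 ± 4.19 in WT CD4+ and 5.06 ± 3.72 in *Sirt2*-/- CD4+ TILs, and the 2 genotypes overlapped within each cell type.

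*Nr4a3* had no order among the groups beyond their spread. It lay at 4.92, 29.7, 34.3 and 34.3 CPM in WT CD4+, 19.97, 30.2, 36.3 and 0 in *Sirt2*-/- CD4+, 0, 26.3, 23.4 and 35.9 in WT CD8+ and 18, 30.1, 17.9 and 40.5 in *Sirt2*-/- CD8+ TILs. All 4 ranges overlapped. Group means ran from 21.4 ± 15.2 CPM in WT CD8+ to 26.6 ± 10.9 CPM in *Sirt2*-/- CD8+ TILs. Without the libraries with few genes, *Sirt2*-/- CD8+ TILs had the lowest mean and WT CD4+ TILs the highest (32.8 ± 2.67 CPM, n = 3).

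*Egr1* (ENSMUSG00000038418.7, chr18:34859823-34864984, plus strand) had the higher means in CD8+ TILs, with overlap between the cell types. It lay at 1.73, 14, 13.6 and 5.80 CPM in WT CD4+ and at 14, 10.2, 22.0 and 51.0 CPM in *Sirt2*-/- CD4+ TILs. In WT CD8+ TILs it lay at 11.9, 34.1, 23.8 and 40.0 CPM, and in *Sirt2*-/- CD8+ TILs at 26.5, 43.8, 27.3 and 58.1 CPM. WT CD8+ replicate 1, at 11.9 CPM, lay below several CD4+ libraries. The value of 51.0 CPM (2847 counts) is from *Sirt2*-/- CD4+ replicate 4, the library without a count for *Egr3* and all 3 Nr4a genes. Means were 38.9 ± 15.1 CPM in *Sirt2*-/- CD8+, 27.4 ± 12.3 in WT CD8+, 24.3 ± 18.5 in *Sirt2*-/- CD4+ and 8.80 ± 6.05 in WT CD4+ TILs, with overlap between all neighbors.

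*Egr2* (ENSMUSG00000037868.15, chr10:67535475-67542188, plus strand), a factor of T cell anergy, overlapped between all groups. Its group means were 5.32 ± 1.77 CPM in *Sirt2*-/- CD8+, 5.06 ± 1.01 in WT CD8+, 5.0 ± 2.95 in WT CD4+ and 3.78 ± 1.38 in *Sirt2*-/- CD4+ TILs. The libraries lay at 8.51, 4.77, 1.31 and 5.39 CPM in WT CD4+, 3.24, 3.50, 5.78 and 2.61 in *Sirt2*-/- CD4+, 3.72, 6.03, 4.86 and 5.61 in WT CD8+ and 4.41, 4.2, 4.72 and 7.95 in *Sirt2*-/- CD8+ TILs. It was the one member besides *Egr1* with counts in every library.

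*Egr3* (ENSMUSG00000033730.4, chr14:70077203-70082614, plus strand), its close relative, showed the widest span between cell types. It lay at 0, 1.20, 1.72 and 0.980 CPM in WT CD4+ TILs and at 3.18, 2.77, 2.69 and 0 CPM in *Sirt2*-/- CD4+ TILs. In WT CD8+ TILs it lay at 0.635, 11.3, 11.1 and 14.4 CPM, and in *Sirt2*-/- CD8+ TILs at 6.59, 19.6, 6.14 and 24.9 CPM. Outside the 3 libraries with few genes, every CD8+ value was above every CD4+ value. Means were 14.3 ± 9.42 CPM in *Sirt2*-/- CD8+, 9.37 ± 6.01 in WT CD8+, 2.16 ± 1.45 in *Sirt2*-/- CD4+ and 0.974 ± 0.719 in WT CD4+ TILs.

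**Figure D1:**
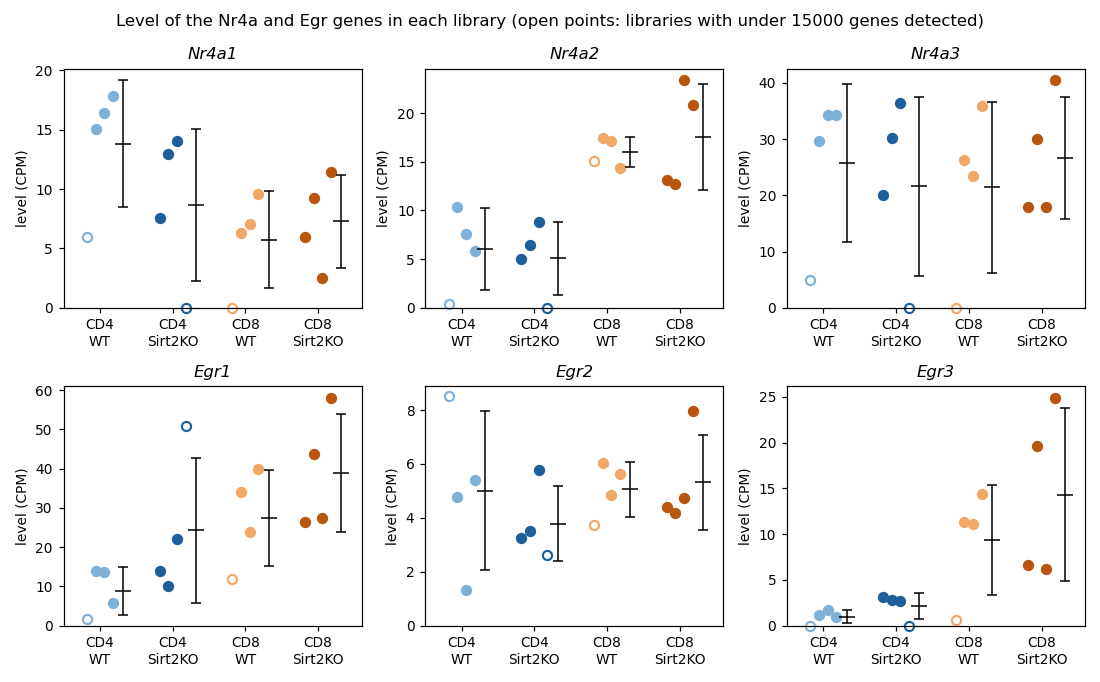
Level in CPM of each of the 6 genes (vertical axis, linear) in the 16 libraries by group, with replicates 1 to 4 from left to right, bars give the group mean ± SD (n = 4), and open points are the 3 libraries with under 15000 genes detected. *Nr4a2* is higher in every CD8+ library (12.7 to 23.4 CPM) than in every CD4+ library (0 to 10.3 CPM), and open points lie at 0 or at the edge of their group for most genes.

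WT CD8+ and CD4+ TILs were compared with edgeR's quasi-likelihood test, and genes with a p below 0.05 after Benjamini-Hochberg adjustment over every gene tested were called. With all 8 libraries, none of the 6 members was called, whereas 11.9% of 14892 genes were. Of the members, 2 were under an unadjusted p of 0.05 (24.3% of all genes were), DESeq2 called 2 (17.8% of all genes) and limma-voom 3 (37%). *Egr3* was 8.94-fold higher in CD8+ TILs (log2 fold change 3.16 ± 1.17, SE, adjusted p = 0.117) and *Egr1* 2.92-fold higher (1.55 ± 0.59, adjusted p = 0.127). *Nr4a2* was 2.49-fold higher (1.32 ± 0.67, adjusted p = 0.266), and it was the 1 member of 6 whose CD8+ libraries all lay above the CD4+ libraries, as did 10.9% of all genes. *Nr4a1* was 2.56-fold lower (−1.35 ± 0.99, adjusted p = 0.464). The differences of *Nr4a3* (−0.36 ± 1.05) and *Egr2* (−0.04 ± 0.60) were within their errors.

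Without replicate 1 of both WT groups, 4 of the 6 members were called, with 28% of all genes called. *Egr3* rose 9.37-fold in CD8+ TILs (3.23 ± 0.31, adjusted p = 4.2e-05), *Egr1* 2.91-fold (1.54 ± 0.32, adjusted p = 0.00452) and *Nr4a2* 2.05-fold (1.04 ± 0.24, adjusted p = 0.00930), and *Nr4a1* fell 2.16-fold (−1.11 ± 0.22, adjusted p = 0.00403). Over these 6 libraries the groups did not overlap for any of the 4, with 3 members higher in CD8+ TILs, as were 23.5% of all genes, and 1 lower, as were 20.4%. *Nr4a3* (−0.20, 95% interval −0.60 to 0.19) and *Egr2* (0.52, −0.50 to 1.54) stayed uncalled. Over all alternatives, the adjusted p of *Egr3* ranged from 4.2e-05 to 0.28, that of *Egr1* from 0.0029 to 0.301, that of *Nr4a2* from 0.0093 to 0.666 and that of *Nr4a1* from 0.0040 to 0.805.

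The same comparison was made in *Sirt2*-/- TILs. With all 8 libraries no member was called (2.24% of 15787 genes were), none was under an unadjusted p of 0.05, and DESeq2 called 0 (8.48% of all genes) and limma-voom 3 (28.4%). *Egr3* was 6.49-fold higher in CD8+ TILs (2.70 ± 1.45, adjusted p = 0.584) and *Nr4a2* 3.42-fold higher (1.77 ± 1.4, adjusted p = 0.822). These were the 2 of 6 members whose CD8+ libraries all lay above the CD4+ libraries, against 15.2% of all genes. *Egr1* was 1.60-fold higher (0.68 ± 0.55, adjusted p = 0.834) and *Nr4a1* 1.21-fold lower (−0.27 ± 1.47, adjusted p = 0.998). The log2 median over all genes was itself 0.16 here, against −0.02 between WT cell types, −0.11 between CD4+ genotypes, 0.01 between CD8+ genotypes and 0.14 for the difference of effects.

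Without *Sirt2*-/- CD4+ replicate 4, 3 of the 6 members were called, with 25.4% of all genes called, and the median of all genes was −0.00. *Nr4a2* rose 2.54-fold in CD8+ TILs (1.34 ± 0.28, adjusted p = 0.00510), *Egr3* 4.86-fold (2.28 ± 0.53, adjusted p = 0.0133) and *Egr1* 2.47-fold (1.31 ± 0.36, adjusted p = 0.0301). *Nr4a1* was not called (−0.69, 95% interval −1.72 to 0.33, adjusted p = 0.324), an interval that includes its WT difference. *Nr4a3* (−0.15, −0.89 to 0.60) and *Egr2* (0.32, −0.44 to 1.08) were again within their errors.

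**Figure D2:**
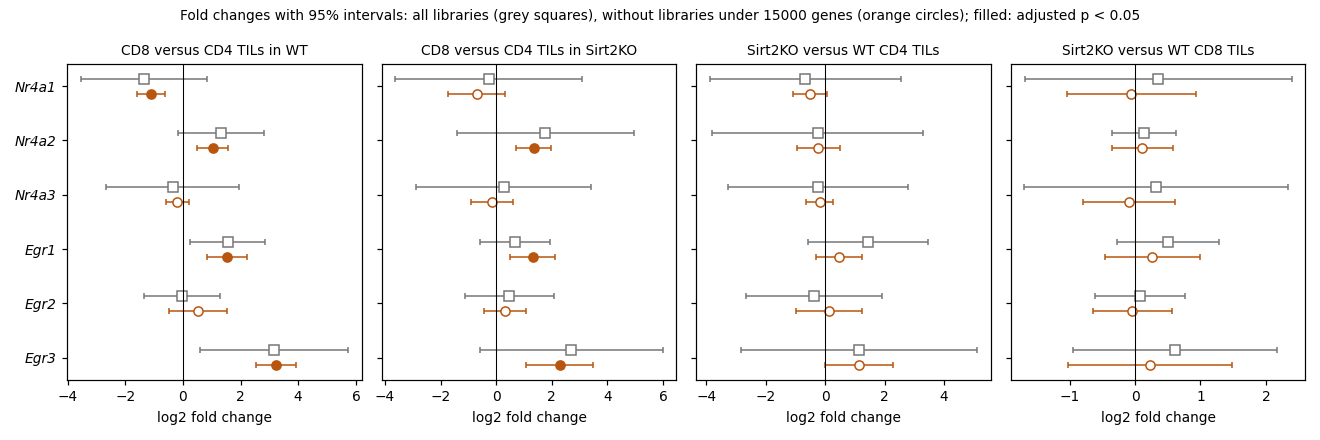
Log2 fold change (horizontal axis) of the 6 genes in the 4 comparisons, with 95% intervals, for all libraries (grey squares) and without the libraries with under 15000 genes (orange circles). Filled symbols have an adjusted p below 0.05 in edgeR. *Egr3*, *Egr1* and *Nr4a2* lie to the right of 0 in both comparisons of CD8+ with CD4+ TILs, and all intervals of the genotype comparisons include 0.

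Nr4a transcripts differed in make-up between the cell types more than in total. Summed per kilobase, the 3 Nr4a genes came to 9.74 ± 4.75 CPM per kilobase in WT CD4+ TILs and 9.15 ± 3.75 in WT CD8+ TILs (SD, n = 4), and to 10.8 ± 3.11 in *Sirt2*-/- CD8+ TILs. In *Sirt2*-/- CD4+ TILs the sum was 7.33 ± 5.39 with replicate 4 at 0, and 9.77 ± 2.80 in the 3 other libraries. Within that sum, which depends on no scaling between libraries, *Nr4a1* made up 32.2 to 64.8% in the 7 CD4+ libraries with counts and 0 to 24.5% in the 8 CD8+ libraries. *Nr4a2* made up 3.76 to 21.6% in the CD4+ libraries and 28.9 to 100% in the CD8+ libraries, the 100% being WT CD8+ replicate 1. No CD8+ library overlapped a CD4+ library in either share, in either genotype. Without the 3 libraries with few genes, the mean share of *Nr4a2* was 16.2 ± 4.98% in WT CD4+, 17.1 ± 1.51% in *Sirt2*-/- CD4+, 37.2 ± 7.19% in WT CD8+ and 41.1 ± 14% in *Sirt2*-/- CD8+ TILs, and that of *Nr4a3* lay between 40.1 and 49.3% in all groups. The shares were looked at after the levels were known and are given without a test.

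**Figure D3:**
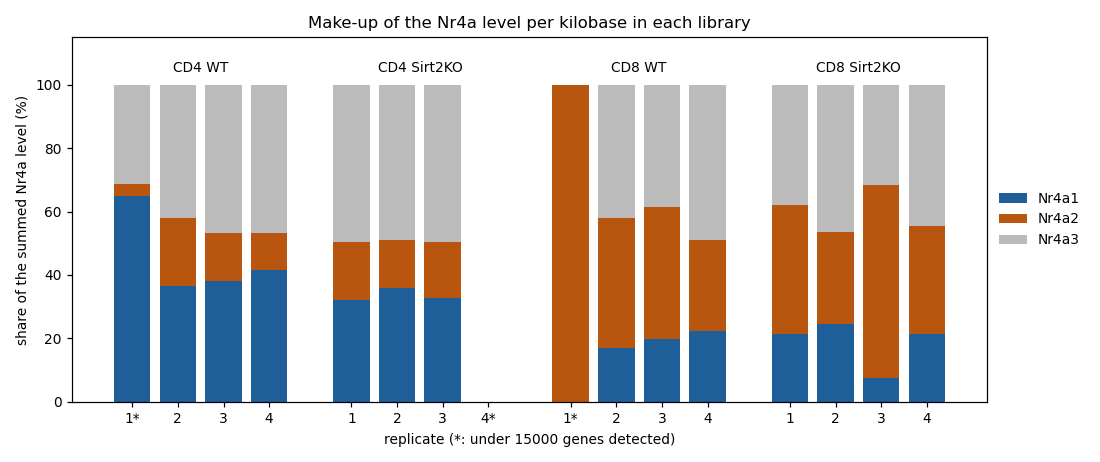
Share in percent (vertical axis) of *Nr4a1*, *Nr4a2* and *Nr4a3* in their summed level per kilobase of exon, 1 bar per library. *Sirt2*-/- CD4+ replicate 4 has no count for any of the 3 and no bar. *Nr4a1* takes at least 32.2% in each CD4+ bar and at most 24.5% in each CD8+ bar.

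The summed Egr level was higher on average in CD8+ TILs, at 3.65 ± 0.863 CPM per kilobase in WT CD4+, 7.02 ± 3.68 in *Sirt2*-/- CD4+, 9.73 ± 4.32 in WT CD8+ and 13.5 ± 5.88 in *Sirt2*-/- CD8+ TILs. The WT ranges (2.89 to 4.80 and 3.88 to 13.8) and the *Sirt2*-/- ranges (3.93 to 12.1 and 8.71 to 20.9) overlapped.

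*Sirt2*-/- and WT TILs were compared within each cell type, which asks whether loss of SIRT2 changes these readouts of TCR signaling in the tumor. In CD4+ TILs edgeR called no member and 0% of 15070 genes. No member was under an unadjusted p of 0.05, DESeq2 and limma-voom called none either (0.0464% and 0.0265% of all genes), and the groups overlapped for all 6, as they did for most genes (1.35% higher and 1.74% lower without overlap). *Egr1* had the largest difference, 2.72-fold higher in *Sirt2*-/- TILs (1.45 ± 0.90, 95% interval −0.56 to 3.45, adjusted p = 0.9999), and its value without the 2 libraries with few genes was 1.38-fold (0.46 ± 0.36). *Egr3* was 2.21-fold higher (1.15 ± 1.79) and *Nr4a1* 1.59-fold lower (−0.67 ± 1.45). The intervals were wide, from −3.88 to 2.54 for *Nr4a1*, so that even a change of several fold could not have been detected.

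Without the 2 libraries with few genes, 3 CD4+ libraries remained in each genotype and again no member was called (0.0374% of all genes were). The 3 *Sirt2*-/- libraries then lay above the 3 WT libraries for *Egr3* (2.69 to 3.18 against 0.980 to 1.72 CPM, 2.21-fold, 1.15 ± 0.53, unadjusted p = 0.0506, adjusted p = 0.990), as for 5.83% of all genes. They lay below the WT libraries for *Nr4a1* (7.59 to 14.1 against 15.1 to 17.9 CPM, 1.42-fold lower, −0.51 ± 0.26, unadjusted p = 0.0730, adjusted p = 0.990), as for 5.16% of all genes. That was 1 of 6 members in each direction, and neither passed the adjustment. Both p-values are from edgeR's quasi-likelihood test.

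In CD8+ TILs the estimates of all 6 members were higher in *Sirt2*-/- than in WT libraries, by 1.05-fold (*Egr2*) to 1.53-fold (*Egr3*, 0.62 ± 0.71), and none was called by edgeR, DESeq2 (0.183% of all genes called) or limma-voom (0.0327%) or reached an unadjusted p of 0.05. *Sirt2* itself was the 1 gene called of 15302 (0.00654%). The groups overlapped for all 6 members, with 1.74% of all genes higher and 1.22% lower without overlap. *Egr1* was 1.42-fold higher (0.51 ± 0.35), *Nr4a1* 1.28-fold (0.35 ± 0.93) and *Nr4a3* 1.25-fold (0.32 ± 0.91). The common sign did not hold when libraries were left out. It was lost for *Nr4a2* without *Sirt2*-/- replicate 3 (−0.026) and for *Egr2* without *Sirt2*-/- replicate 4 (−0.19), and limma-voom gave *Nr4a1* and *Egr2* below 0 with all libraries. Without WT CD8+ replicate 1 the log2 differences were −0.059 for *Nr4a1*, −0.095 for *Nr4a3* and −0.041 for *Egr2*, 0.11 for *Nr4a2*, 0.26 for *Egr1* and 0.23 for *Egr3*, with none called (0.0439% of all genes). *Nr4a2* had the narrowest log2 interval with all libraries, −0.35 to 0.62. Markers of other cells were also above 0 in this comparison, with 9 of 9 tested myeloid genes (median log2 difference 2.36, 4 under an unadjusted p of 0.05) and 3 of 3 tested stromal genes (median 2.08). Over all genes, 579 of 15302 were under that p in edgeR. Above 0 were also 3 of 3 tested B cell genes (median 0.77), 3 of 3 melanoma genes (median 0.39) and 2 of 4 NK cell genes. Without WT replicate 1 they were 10 of 10 myeloid (median 1.94), 4 of 4 stromal (median 2.51), 5 of 5 melanoma (median 1.35) and 2 of 3 B cell genes. In CD4+ TILs 9 of 9 myeloid (median 1.05) and 3 of 3 stromal genes (median 1.30) were above 0 too. Of melanoma genes 1 of 5 and of B cell genes 0 of 2 were. Without the CD4+ libraries with few genes, 10 of 10 myeloid (median 0.65), 5 of 5 stromal (median 3.17), 3 of 5 melanoma and 3 of 4 B cell genes were. None of these genes was called by edgeR. Summed levels ran from 2.24 to 10.2 CPM in WT and from 10.3 to 41.7 CPM in *Sirt2*-/- CD8+ TILs for the myeloid list, and from 36.2 to 48.3 and 40.5 to 108 CPM for the stromal list. The stromal sum is mainly a level of *Pecam1*. The part of these markers in the result was not tested.

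The genotype effect was not shown to differ between the cell types. In the fit over all 16 libraries the log2 effect in CD8+ minus that in CD4+ TILs ran from −0.96 ± 0.88 (*Egr1*) to 1.02 ± 1.88 (*Nr4a1*). No member was called (0% of 17270 genes), none was under an unadjusted p of 0.05, and DESeq2 (0.0116% of genes) and limma-voom (0%) called no member. Over the 13 other libraries, *Egr3* had the largest difference, −0.92 ± 0.60 (unadjusted p = 0.147 in edgeR's quasi-likelihood test, adjusted p at 1, 0% of genes called).

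The genes around these factors were read from 5 lists, which share members with each other and with the regulatory T cell markers (*Il2ra*, *Ikzf2*) and the CD4+ markers (*Cd40lg*). Of all genes, 11.9% were called between WT cell types (728 higher and 1037 lower in CD8+ TILs) and 2.24% between *Sirt2*-/- cell types (145 and 209). Without the libraries with few genes, 28% (2331 higher and 2063 lower) and 25.4% (2310 higher and 1940 lower) were called. More of the other immediate-early genes were called lower than higher in CD8+ TILs. In WT TILs 1 of 19 tested was called higher and 3 lower, with a median log2 difference of −0.60 against −0.02 over all genes. *Zfp36l1*, which destabilizes AU-rich mRNAs, fell (−2.03 ± 0.17, adjusted p = 4.3e-05), as did the AP-1 gene *Junb* (−1.01 ± 0.27, adjusted p = 0.0341) and *Ier5* (−0.85 ± 0.21, adjusted p = 0.0210). *Myc* rose (1.63 ± 0.14, adjusted p = 4.5e-05). Without the libraries with few genes the counts were 4 higher and 9 lower in WT and 4 higher and 7 lower in *Sirt2*-/- TILs, where all libraries gave 0 higher and 1 lower (*Zfp36l1*, −1.69 ± 0.21, adjusted p = 0.00666).

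Corepressors of EGR proteins and feedback inhibitors of ERK moved in both directions. In WT TILs 2 of 11 were called higher and 3 lower in CD8+ TILs (median −0.49), where 11.9% of all genes were called. *Dusp4*, a nuclear phosphatase of MAP kinases, fell 15.7-fold (−3.98 ± 0.44, adjusted p = 0.000227) and *Dusp1* fell (−2.21 ± 0.37, adjusted p = 0.00288), whereas *Dusp2* (1.4 ± 0.37, adjusted p = 0.0300) and *Dusp6*, a phosphatase of ERK (1.08 ± 0.25, adjusted p = 0.0180), rose. In *Sirt2*-/- TILs *Dusp4* (−3.53 ± 0.47, adjusted p = 0.00861) and *Dusp1* (−1.80 ± 0.35, adjusted p = 0.0374) fell and none of the 11 rose. Without the libraries with few genes the counts were 3 higher and 5 lower in WT and 2 higher and 3 lower in *Sirt2*-/- TILs.

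Genes of NFAT- and NR4A-linked dysfunction were mostly lower in CD8+ TILs, with 1 of 14 called higher and 6 lower in WT (median −0.69) and 0 higher and 4 lower in *Sirt2*-/- TILs (median −0.43). Of all genes, 11.9% and 2.24% were called. The inhibitory receptors *Ctla4* (25.9-fold, −4.69 ± 0.25, adjusted p = 2.0e-06) and *Tigit* (−1.55 ± 0.20, adjusted p = 0.000525) fell in WT CD8+ TILs, together with *Ikzf2* (−2.91 ± 0.23, adjusted p = 2.7e-05) and *Irf4*, a factor induced by TCR strength (−1.36 ± 0.25, adjusted p = 0.00515). The same 4 genes were those called in *Sirt2*-/- TILs, at −4.56 for *Ctla4*, −2.39 for *Ikzf2*, −1.35 for *Tigit* and −1.0 for *Irf4*. *Ctla4*, *Tigit*, *Ikzf2* and *Irf4* are also expressed by regulatory T cells, all 5 of whose markers were lower in WT CD8+ TILs and 4 of 5 in *Sirt2*-/- CD8+ TILs (median −2.91 and −2.39). The part of these cells in the difference was not tested. Without the libraries with few genes, 2 were called higher and 7 lower in WT and 2 higher and 5 lower in *Sirt2*-/- TILs.

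The next list joined anergy genes linked to EGR2 and EGR3 with activation genes, and its counts do not separate the 2 kinds. It gave 2 higher and 9 lower of 17 in WT TILs (median −0.78) and 1 higher and 4 lower of 17 in *Sirt2*-/- TILs (median −0.34). Of all genes, 11.9% and 2.24% were called. *Cd40lg* (−6.89 ± 0.70, adjusted p = 0.000136), the costimulatory receptor genes *Tnfrsf4* (−4.88 ± 0.23, adjusted p = 1.1e-06) and *Tnfrsf9* (−1.88 ± 0.20, adjusted p = 0.000194) and *Il2ra* (−2.91 ± 0.25, adjusted p = 4.9e-05) fell most in WT CD8+ TILs. In *Sirt2*-/- CD8+ TILs *Tnfrsf4* (−3.92), *Il2ra* (−2.86) and *Cd5* (−1.39) fell and *Fasl*, a known target of EGR3, rose (1.53 ± 0.27, adjusted p = 0.0273), as it did in WT TILs (1.63 ± 0.40, adjusted p = 0.0214). None of the genes named from this list is a diacylglycerol kinase or E3 ubiquitin ligase gene. *Il2ra* is also a regulatory T cell marker and *Cd40lg* a CD4+ marker, and the part of cell mixture in these counts was not tested. Without the libraries with few genes the counts were 4 higher and 10 lower of 18 in WT and 4 higher and 7 lower of 17 in *Sirt2*-/- TILs. Upstream genes of the TCR relay that were called in WT TILs differed by less than 2-fold. Of the 15, 2 were called higher and 3 lower, where 11.9% of all genes were called. Among them were *Plcg1* (−0.80 ± 0.11, adjusted p = 0.000966), *Nfkb1* (−0.74 ± 0.11, adjusted p = 0.00174), *Rel* (−0.63 ± 0.17, adjusted p = 0.0344) and *Prkcq* (0.55 ± 0.10, adjusted p = 0.00575). In *Sirt2*-/- TILs none of the 15 was called by edgeR, with 6 under an unadjusted p of 0.05 (1842 of 15787 genes were). Without the library with few genes 1 was called higher and 5 lower, where 25.4% of all genes were called. Heat shock genes moved with the cell type too, with 5 of 10 called higher and 1 lower in WT CD8+ TILs (median 0.55) and 2 higher in *Sirt2*-/- CD8+ TILs (median 0.38). Without the libraries with few genes, 7 were called higher and 2 lower in each genotype (median 0.66 in WT and 0.60 in *Sirt2*-/- TILs). The part of heat shock genes in the differences of the members was not tested.

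**Figure D4:**
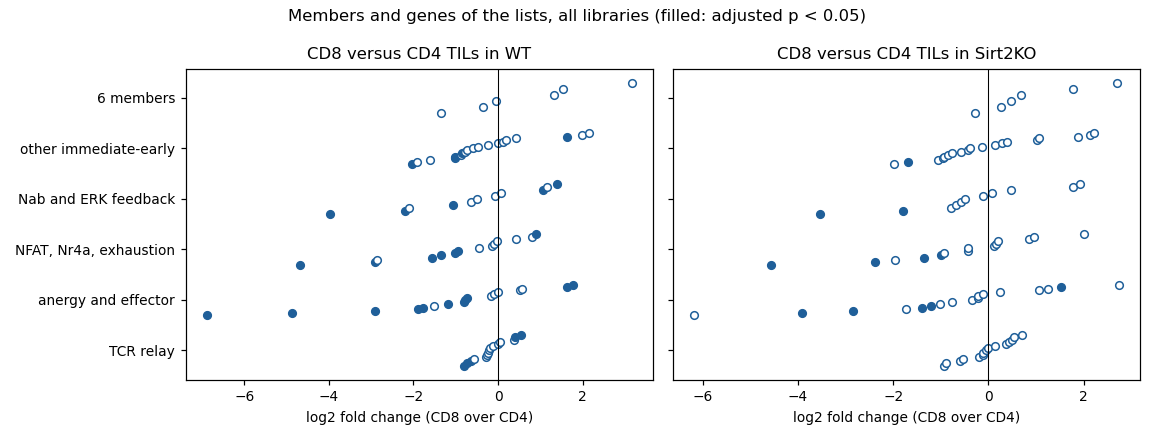
Log2 fold change of CD8+ over CD4+ TILs (horizontal axis) for the 6 members and each gene of the 5 lists, in WT (left) and *Sirt2*-/- TILs (right), all libraries, where filled points have an adjusted p below 0.05 in edgeR. *Egr3*, at 3.16 and 2.70, is the rightmost of the 6 members in both panels, while called genes of the lists lie mostly to the left of 0.

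Between genotypes no gene of these 5 lists was called by edgeR in either cell type, with or without the libraries with few genes. With all libraries 0 to 3 genes of a list were under an unadjusted p of 0.05 in CD4+ TILs and 1 to 3 in CD8+ TILs. Over all genes, 190 of 15070 and 579 of 15302 were. Those of the lists in CD8+ TILs were all higher in *Sirt2*-/- libraries, where 334 of all genes were higher and 245 lower. In CD8+ TILs the log2 differences were above 0 for 15 of 19 other immediate-early genes (median 0.19), 8 of 11 corepressor and feedback genes (0.26), 12 of 14 dysfunction genes (0.25), 13 of 17 anergy and activation genes (0.08) and 11 of 15 TCR relay genes (0.07), against a median of 0.01 over all genes. Without WT CD8+ replicate 1 the medians were 0.03, 0.12, 0.16, 0.08 and 0.06. The 3 most abundant genes of each of the first 2 lists lay at −0.09 ± 0.12 for *Klf6*, 0.13 ± 0.17 for *Jund*, 0.27 ± 0.17 for *Zfp36l1*, −0.08 ± 0.09 for the EGR corepressor *Nab1* and 0.18 ± 0.24 for *Dusp5* and 0.94 ± 0.44 for *Dusp4* (adjusted p = 0.986). In CD4+ TILs the medians of the 5 lists lay between −0.10 and 0.08, where the median over all genes was −0.11.

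The members did not vary as 1 group from library to library. Over the 13 libraries with at least 15000 genes, after subtraction of each group's mean, log2 levels of *Nr4a1* and *Nr4a3* went together (Pearson r = 0.85, Spearman rho = 0.92), and r was 0.85 without the 2 libraries farthest from the median of *Nr4a1* and 0.94 over the 9 libraries outside *Sirt2*-/- CD8+ TILs. *Egr3* went with *Nr4a1* (r = 0.72, rho = 0.62), *Nr4a3* (r = 0.74, rho = 0.58) and *Egr1* (r = 0.68, rho = 0.63). Outside *Sirt2*-/- CD8+ TILs these were −0.065, 0.063 and 0.56, and the relation of *Egr3* with both Nr4a genes rested on those 4 libraries, which also spanned the widest range of *Egr3* (6.14 to 24.9 CPM). *Nr4a2* was not close to *Nr4a1* (r = −0.19, rho = −0.25) or *Nr4a3* (r = 0.15, rho = 0.027, and r = 0.51 without the 2 farthest libraries), and r of *Egr2* with the others ran from −0.042 to 0.33. For *Egr2* and *Egr3*, r was −0.042 over the 13 libraries and −0.81 over the 9 outside *Sirt2*-/- CD8+ TILs. Libraries share depth, digestion and cell mixture, so these values describe the libraries and were not tested.

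**Figure D5:**
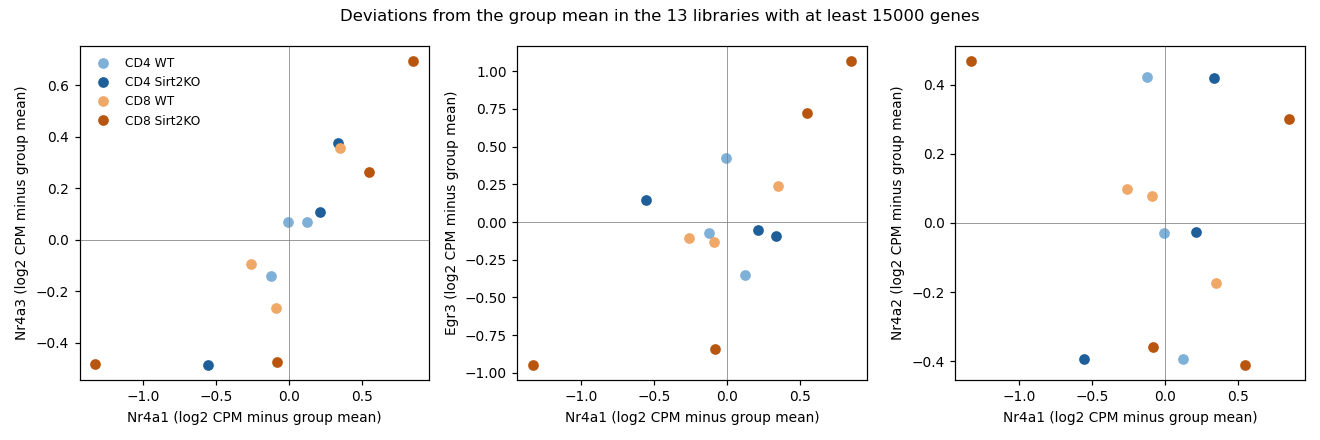
Deviation of log2 CPM from the group mean for *Nr4a3*, *Egr3* and *Nr4a2* (vertical axes) against *Nr4a1* (horizontal axis) in the 13 libraries with at least 15000 genes, colored by group. *Nr4a3* rises with *Nr4a1* (r = 0.85), the *Egr3* relation is set by the 4 *Sirt2*-/- CD8+ libraries, and *Nr4a2* shows none (r = −0.19).

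Among 8309 genes with a mean of at least 10 CPM, the closest to each member over these 13 libraries were *Gadd45g* (r = 0.97), *Ifi204* and *Herc6* for *Nr4a1*, *Ppp1r16b* (r = 0.98), *Lmna* and *Nrros* for *Nr4a3*, and *Dock10* (r = 0.96), *Pdik1l* and *Hells* for *Nr4a2*. For *Egr1* they were *Prdx1* (r = 0.93), *Tma16* and *Eif4e*, for *Egr2* *Rsl1d1* (r = 0.94) and *Rlim*, and for *Egr3* *Btrc* (r = 0.87), *Zfp410* and *Oas1c*. No gene was on the list of 2 members. With 13 libraries in 4 groups, 9 degrees of freedom were left, and none of these genes was among the 3 closest when all 16 libraries were used.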

How the data were processed

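Total RNA of CD4+ and CD8+ TILs was sequenced by the authors from 1 ng per library with a stranded, ribosomal RNA-depleted kit as 100-base read pairs. The authors deposited whole-number counts of reads per gene for all 16 libraries, without normalization. The submitters' processing notes name STAR, HTSeq and mm10 with no version, and all gene identifiers are those of GENCODE mouse release 21 (GRCm38). No sequence read was used here. No per-sample column was left out.

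The robust quasi-likelihood test of edgeR 4.0.16 (R 4.3.3, two-sided) was run after TMM scaling and filterByExpr, separately for each pair of groups and over 16 libraries for the difference between cell types. Genes with a Benjamini-Hochberg value under 0.05 were called. Standard errors were derived from the F statistic. CPM were scaled with TMM over 16 libraries, and 2 was the prior count on the log2 scale. Levels per kilobase used the summed exon length. The 95% intervals of fold changes rest on the spread between libraries. The floor of 3 counts covers counting error only, since reads are not independent molecules.

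Alternatives were DESeq2 1.42.0, limma-voom (limma 3.58.1) with quality weights, the size factors of DESeq2, no filter, at least 10 counts in every library, 1 model of all libraries, the replicate number as a block, leaving out libraries with under 15000 genes detected, and leaving out each library. The scripts were tested on simulated data. P-values measure the spread between these libraries.

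The members and lists were chosen with earlier results of these data known. Named were the 6 members, *Sirt2*, in each list up to 4 called genes by size of change or otherwise the 3 most abundant, and the 3 genes most like each member, of which 1 is not reported here. The lists without the libraries with few genes were added after seeing the data.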

Additional observations from a re-analysis of the deposited data

Results flagged for a closer look

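Highest or lowest values in groups of 4 were set against Dixon's critical value for the gap to the nearest library, over 109 groups for the members, *Sirt2*, the shares and the list sums. Chance gives about 1 in 20, and 14 were past it. Among the members they were *Nr4a3* in WT CD4+ replicate 1 (4.92 CPM, low), *Egr3* in *Sirt2*-/- CD4+ replicate 4 (0 CPM, low) and *Egr2* in *Sirt2*-/- CD8+ replicate 4 (7.95 CPM, high), the last from the library with the most genes detected (22138). *Sirt2* stood apart in the 3 libraries with few genes detected, at 0 CPM in *Sirt2*-/- CD4+ replicate 4, 75.6 CPM in WT CD4+ replicate 1 and 51.5 CPM in WT CD8+ replicate 1.

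Among the list sums, *Sirt2*-/- CD4+ replicate 4 was high for heat shock genes (8965 CPM) and melanoma genes (81.5 CPM). WT CD4+ replicate 1 was high for melanoma genes (98.4 CPM), B cell genes (12.5 CPM) and the anergy and activation list (4209 CPM). *Sirt2*-/- CD8+ replicate 4, the library highest in *Nr4a1*, *Nr4a3*, *Egr1*, *Egr2* and *Egr3* of its group, was high for NK cell genes (449 CPM) and melanoma genes (15.7 CPM). *Eomes* had by far the highest mean level of the NK cell genes. *Sirt2*-/- CD4+ replicate 1 was low for the dysfunction list (1249 CPM). The part of these sums in the levels of the members was not tested.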

How the results depend on the processing

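The count of 0 called members held under every alternative for both genotype comparisons and for the difference between cell types. Between genotypes, *Egr1* had an unadjusted edgeR p of 0.0338 in CD4+ TILs with all libraries in 1 model (1.46 ± 0.63, adjusted p = 0.753). It had 0.0113 in CD8+ TILs with the replicate block (0.56 ± 0.18, adjusted p = 0.999). Estimates of *Egr1* stayed above 0 in every setting tested, at 0.21 to 1.76 in CD4+ and 0.17 to 0.75 in CD8+ TILs. Those of *Egr3* did too, at 0.73 to 1.58 and 0.034 to 0.91. For CD8+ against CD4+ TILs the count of called members depended on the libraries and the tool. In WT TILs 2 members were called by DESeq2, 3 by limma-voom, 1 (*Egr3*) with the replicate block, 4 without libraries under 15000 genes, and 0 to 2 when each library was left out, the 2 being without WT CD4+ replicate 1. In *Sirt2*-/- TILs 3 were called by limma-voom, 3 without libraries under 15000 genes, and 0 to 3 when each library was left out, the 3 being without *Sirt2*-/- CD4+ replicate 4. Over all genes, calls ranged from 811 (all libraries in 1 model) to 5504 (limma-voom) in WT and from 108 (replicate block) to 4481 (limma-voom) in *Sirt2*-/- TILs, against 1765 and 354. Between genotypes they were 0 to 7 in CD4+ TILs and 0 to 28 (DESeq2) in CD8+ TILs. Deviations of libraries of the same number had r of 0.067 to 0.119 in WT, −0.014 to 0.133 in *Sirt2*-/- CD8+ and CD4+ TILs and −0.072 to 0.077 between genotypes. Libraries of different numbers were not compared in this way, so these values do not settle whether the number marks a pair. The number was used as a pairing only in the replicate block. The block changed no other call of a member. With at least 10 counts in every library, 2 to 4 members could be tested.

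Reversed log2 fold changes were all of members that were not called. With limma-voom they were 0.64 for *Egr2* between genotypes in CD4+ TILs, −0.047 for *Nr4a1* and −0.077 for *Egr2* in CD8+ TILs, 1.06 for *Egr2* between WT cell types, −0.26 for *Nr4a3* between *Sirt2*-/- cell types and −0.72 for *Egr2* in the difference of effects. Without libraries under 15000 genes they were 0.13 for *Egr2* in CD4+ TILs, −0.059 for *Nr4a1*, −0.095 for *Nr4a3* and −0.041 for *Egr2* in CD8+ TILs, 0.52 for *Egr2* between WT cell types, −0.15 for *Nr4a3* between *Sirt2*-/- cell types and −0.17 for *Egr2* in the difference of effects. *Egr2* between WT cell types was also 0.0199 without filter, 0.0173 with all libraries in 1 model and 0.19 with the replicate block. Leaving out each library, ranges that crossed 0 were, between WT cell types, −0.35 to 0.40 for *Egr2* and −0.73 to 0.12 for *Nr4a3*. They were, between *Sirt2*-/- cell types, −0.69 to 0.061 for *Nr4a1* and −0.15 to 0.64 for *Nr4a3*. Between genotypes in CD4+ TILs they were −0.65 to 0.16 for *Nr4a2* and −0.62 to 0.16 for *Nr4a3*. In CD8+ TILs they were −0.19 to 0.18 for *Egr2*, −0.059 to 0.73 for *Nr4a1*, −0.026 to 0.27 for *Nr4a2* and −0.095 to 0.70 for *Nr4a3*. It was −0.0199 to 0.80 for *Nr4a2* in the difference of effects. The causes were not tested. CPM by total counts moved no group mean of a member by more than 1 SD. Over all 16 libraries, where the values of 0 enter, r was 0.68 for *Nr4a1* and *Nr4a2*, 0.99 for *Nr4a1* and *Nr4a3*, 0.83 for *Nr4a2* and *Egr3*, 0.70 for *Nr4a2* and *Nr4a3* (0.15 over 13 libraries) and 0.098 for *Nr4a3* and *Egr1* (0.59 over 13 libraries).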
